A study of Mus musculus with 2 samples.

Results

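Mitochondrial ribosomal protein genes are nuclear genes whose products are imported into mitochondria and built into the ribosome that translates the proteins encoded by mitochondrial DNA. They were taken as the protein-coding genes of the GENCODE M21 annotation whose symbol was Mrps or Mrpl followed by a number and at most 1 letter, with a row in both gene tables. Of 78 such genes, 77 had a row: 29 Mrps genes, named for the small subunit, and 48 Mrpl genes, named for the large subunit, among 43346 Ensembl genes in all. They were measured by total RNA sequencing in embryonic mouse hearts of strain B6NCrl at 12.5 days, male and female pooled, with no treatment or altered allele labelled. The 2 libraries were labelled as biological replicates 1 and 2 of this 1 group and were made from 10 ng of RNA each. No second condition was compared, so values are given per library and the spread is that between these pools, which no label ties to single embryos. With 2 libraries an exact sign test cannot go below p = 0.5, and no p-value is given.

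The mitochondrial ribosome carries a small subunit, which holds the messenger RNA, and a large subunit, which joins amino acids. Its ribosomal RNAs come from mitochondrial DNA, while its proteins come from nuclear genes, so the 2 genomes have to supply 1 particle. Some of its proteins are homologues of bacterial ribosomal proteins and others occur in mitochondria alone. In the heart, whose contraction draws on oxidative phosphorylation, human variants in several of these genes are known to cause cardiomyopathy.

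The libraries held 34751234 expected reads in replicate 1 and 31847875 in replicate 2, of which 33480066 and 30665239 fell on mouse genes. Spike-ins took 3.66% and 3.71%. The 7 heart muscle markers averaged between 168 TPM (Nkx2-5) and 9805 TPM (Actc1), where TPM are reads scaled by length and by the total of the library. All 4 liver markers were higher in replicate 1: for example, Afp had 99.3 and 18.24 TPM, and Alb 9.23 and 1.85 TPM, in replicates 1 and 2. Both lung markers were higher in replicate 2, Sftpc with 0 and 0.93 TPM and Nkx2-1 with 0.10 and 1.07 TPM. Whether such cells contributed to any value below was not tested. In these bulk samples fewer cells of a type and less RNA per cell cannot be told apart.

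No member was close to the limit of detection. All 77 had at least 1 TPM, and all 77 at least 10 TPM, in both libraries, against 57.5% and 38.1% of 21461 nuclear protein-coding genes. Their median was 81.8 TPM in replicate 1 and 79.0 TPM in replicate 2, while that of the protein-coding genes at 1 TPM or more in both libraries was 18.7 and 18.9 TPM. By mean level 56 members lay between 50 and 200 TPM, 16 under 50 TPM and 5 over 200 TPM. Together they summed to 7568 and 7537 TPM and drew 0.446% and 0.442% of the reads on genes.

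The large subunit held both ends of the range. Mrpl42 was the highest, at 398.47 TPM in replicate 1 and 402.96 TPM in replicate 2, rank 277 among nuclear protein-coding genes. Mrpl52 followed at 220.81 and 220.64 TPM, and Mrpl54 at 198.28 and 205.43 TPM. All 3 encode proteins without a bacterial homologue. Mrpl30 had 195.64 and 192.45 TPM, Mrpl17 had 186.58 and 185.71 TPM, and Mrpl51 had 173.12 and 171.93 TPM. In each of these 6 genes the libraries lay close together, with log2 differences between -0.05 and 0.02.

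The lowest members were also of the large subunit. Mrpl35 had 17.66 TPM in replicate 1 and 18.88 TPM in replicate 2. Mrpl1 had 21.47 and 20.25 TPM, and Mrpl11 23.63 and 24.07 TPM. Mrpl47 had 25.82 and 25.72 TPM. The first 3 encode homologues of bacterial proteins that carry the same numbers, and Mrpl1 and Mrpl11 belong to the stalk regions of the large subunit. The highest mean level of the members was 21.9 times the lowest.

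Small subunit genes spread less widely, between 41.4 and 336 TPM on average. Mrps21 led, at 339.67 and 333.23 TPM in replicates 1 and 2. Mrps36 had 208.71 and 208.26 TPM, and Mrps33 had 166.54 and 166.84 TPM. Mrps36 carries a small subunit name, but its product is known as a component of the 2-oxoglutarate dehydrogenase complex and is absent from structures of the ribosome. Next came Mrps14 at 150.54 and 149.33 TPM, Mrps24 at 135.79 and 138.24 TPM, and Mrps15 at 115.99 and 118.71 TPM. The 4 lowest were Mrps9 (45.89 and 48.34 TPM), Mrps11 (40.18 and 43.56 TPM), Mrps2 (40.58 and 43.02 TPM) and Mrps31 (39.56 and 43.17 TPM). All 4 were higher in replicate 2. On the log2 scale the SD over genes was 0.74 in the small and 0.97 in the large subunit. Of the 20 highest members 5 were small and 15 large subunit genes, and of the 20 lowest 6 were small and 14 large. Among all 77 members 29 were small and 48 large.

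**Figure D1:**
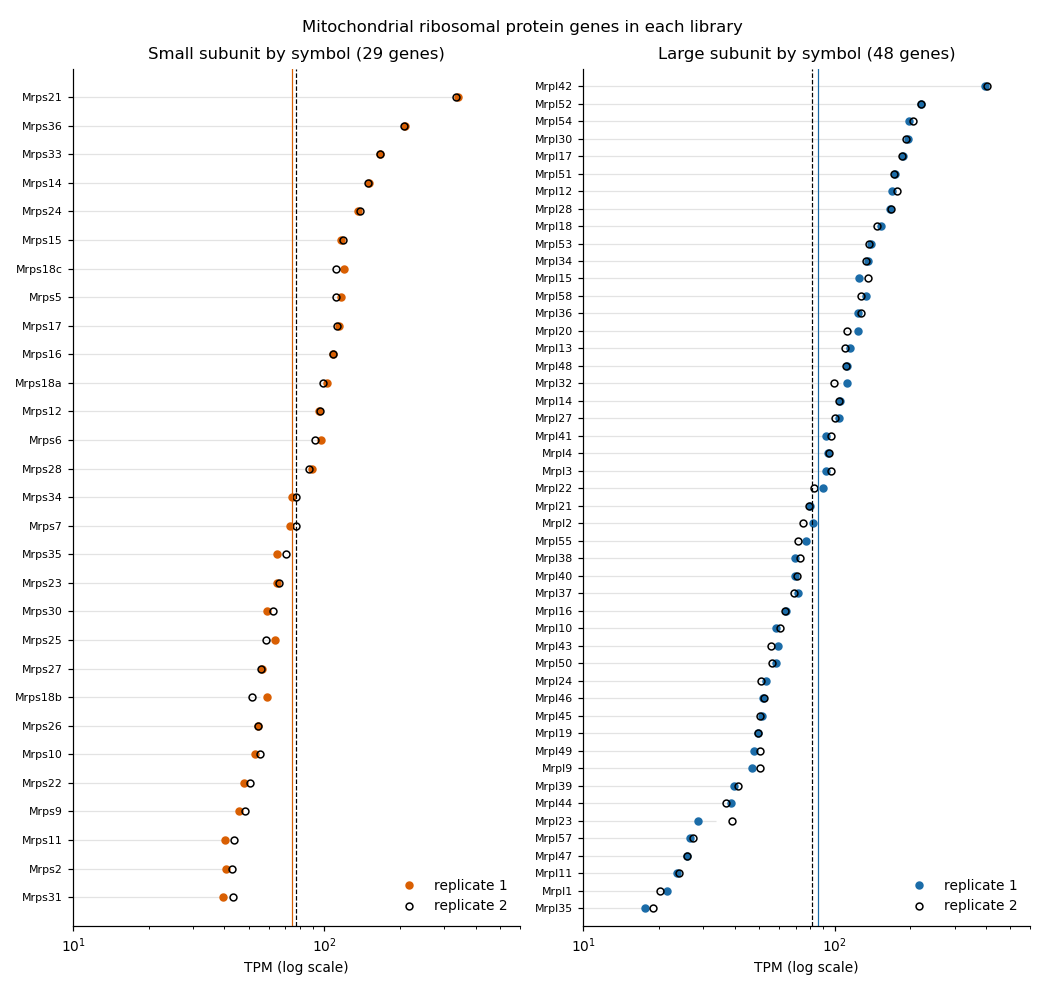
TPM (log axis) of each member in replicate 1 (filled points) and replicate 2 (open points), with small subunit genes on the left and large subunit genes on the right; the solid and dashed vertical lines are the medians of replicates 1 and 2. The small subunit spans 41.4 to 336 TPM and the large subunit 18.3 to 401 TPM, and the paired points lie apart most visibly for Mrpl23.

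The medians of the subunits were close. Small subunit genes had a median of 74.5 TPM in replicate 1 and 77.2 TPM in replicate 2, against 85.6 and 80.9 TPM for large subunit genes. The log2 ratio of small over large was -0.20 in replicate 1 and -0.07 in replicate 2, with a mean of -0.13 ± 0.10 (SD, n = 2). The direction was not stable: it was 0.057 with geometric means in place of medians, and 0.13 once 5 ribosome proteins with other names (Dap3, Ptcd3, Chchd1, Aurkaip1 and Gadd45gip1) were added. In library-scaled reads without length it was -0.0052, and with the reads of the Mrpl23 pseudogene (described below) added to Mrpl23 it was -0.24. In cytosolic ribosomal protein genes the small subunit medians were higher, at 482 and 472 TPM against 412 and 402 TPM for the large subunit. All 31 small subunit genes of that ribosome, but 46 of 49 large subunit genes, were at 1 TPM or more in both libraries.

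Symbols do not always follow the structure of the ribosome. Mrps30 and Mrps18a encode proteins of the large subunit, and Mrpl42 was once also listed as a small subunit protein. Mrps30 had 59.34 and 62.67 TPM and Mrps18a had 102.35 and 98.70 TPM in replicates 1 and 2. Placing genes by structure, with 26 small and 50 large subunit genes and Mrps36 left out, gave log2 ratios of -0.21 and -0.07. Among the paralogs of bacterial S18, Mrps18c had 119.26 and 111.46 TPM, Mrps18a the values above and Mrps18b 59.18 and 51.55 TPM. The order of these 3 genes was the same in both libraries.

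Members were also divided by origin, using the systematic names of ribosomal proteins. The 31 genes of mitochondria-specific proteins had medians of 64.6 and 66.0 TPM, and the 45 genes with a bacterial homologue had medians of 95.3 and 95.7 TPM. The log2 ratio of mitochondria-specific over bacterial type was -0.56 and -0.54 in replicates 1 and 2. This difference was smaller than the spread over genes, with an SD of log2 TPM of 0.86 among mitochondria-specific and 0.90 among bacterial type genes. Genes of mitochondria-specific proteins were longer, with a median effective length of 1101 bases against 828 bases, where effective length is the number of positions a read can start from. The median gene of mitochondria-specific type had 1646 reads and that of bacterial type 1607 reads, so reads per gene differed little while TPM did. Mrps18a and Mrps18b, although paralogs of bacterial S18, count as mitochondria-specific in these names.

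Longer members had lower TPM. The Pearson correlation of log2 TPM with log2 effective length was -0.77 over the 77 genes, and that of log2 reads was 0.06. Since TPM are reads divided by effective length, these quantities share their terms. For nuclear protein-coding genes in the same range of reads the correlations were -0.65 and 0.04, but holding reads within a range itself makes TPM fall with length. The correlation of log2 TPM with log2 length was -0.31 over detected protein-coding genes, -0.34 over those in the TPM range of the members, -0.61 over complex I genes and -0.24 over cytosolic ribosomal protein genes. Over genes the SD of log2 reads was 0.57 and that of log2 TPM 0.89. Mrpl35, the lowest member in TPM, had 1509 and 1458 reads over an effective length of 3616 bases. Mrpl52, among the highest, had 1633 and 1475 reads over 313 bases. Read support was 353 to 5109 reads per member, with a median of 1639.

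**Figure D2:**
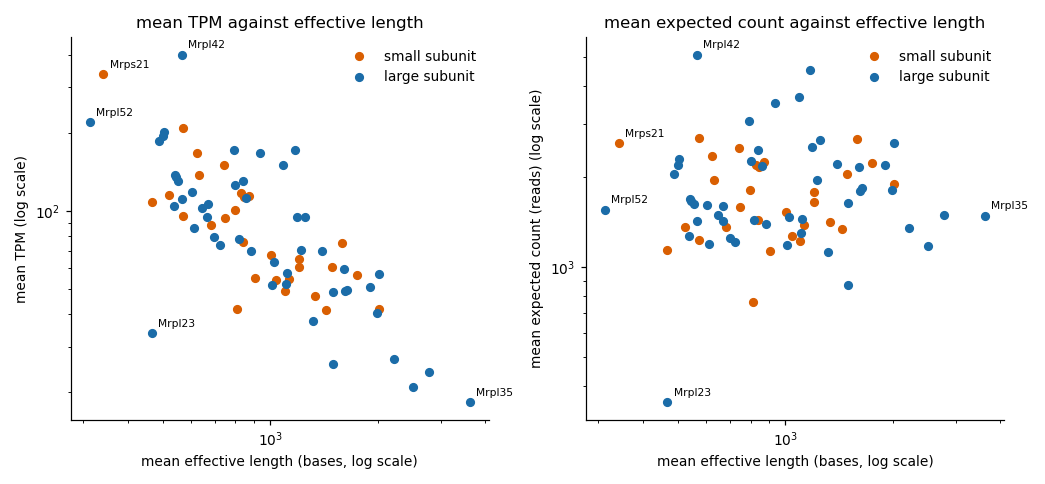
Mean TPM (left) and mean expected count in reads (right) of the 77 members against mean effective length in bases, all on log axes, with small subunit genes in orange and large subunit genes in blue. TPM fall with length (Pearson r = -0.77 on log2 values) and reads do not (r = 0.06); Mrpl23 lies low in both panels.

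Variants of 4 members are known to cause cardiomyopathy in people. Mrps14, of the small subunit head, had 150.54 and 149.33 TPM in replicates 1 and 2, and Mrpl3, of the large subunit core, had 92.23 and 96.46 TPM. Mrps22 had 48.04 and 50.37 TPM, and Mrpl44, an RNase III relative at the surface of the large subunit, had 38.52 and 37.00 TPM. Their means ran from 37.8 to 150 TPM in this tissue.

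Ribosome proteins with other names lay near the members, and other genes of mitochondrial translation lay lower. The 5 proteins with other names had medians of 108 and 105 TPM, led by Chchd1 at 196.09 and 193.23 TPM, with Gadd45gip1 lowest at 42.69 and 41.50 TPM. The 29 genes listed as assembly factors were each at 1 TPM or more in both libraries, with medians of 20.4 and 21.03 TPM. Lyrm2 led this list at 114.08 and 112.48 TPM, followed by Fastkd2 (47.20 and 46.79 TPM) and Malsu1 (48.21 and 44.90 TPM). Whether Lyrm2 acts in ribosome assembly was not tested here. Ybey, an endoribonuclease, had 5.05 and 4.75 TPM. Translation factors and related proteins, 16 genes, had medians of 30.3 and 31.6 TPM. The RNA-binding protein Slirp led them at 218.40 and 201.67 TPM, the elongation factor Tufm had 134.26 and 133.90 TPM, and the release factor Mtrf1 had 7.99 and 7.65 TPM.

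Genes that charge transfer RNAs or transcribe mitochondrial DNA lay at a similar level. The 17 mitochondrial aminoacyl-tRNA synthetases had medians of 20.2 and 22.2 TPM, from Mars2 at 3.34 and 3.22 TPM to Lars2 at 739.06 and 787.91 TPM. Rars2, the next highest, had 43.89 and 50.45 TPM. Lars2 drew 66042 and 63645 reads in replicates 1 and 2, and where in the gene they lay was not examined. The 10 genes of mitochondrial transcription and replication had medians of 21.6 and 21.5 TPM, with Ssbp1 at 88.19 and 84.70 TPM and Tfam at 51.71 and 48.50 TPM. The mitochondrial ribosomal RNAs themselves had 4495 and 4558 TPM (mt-Rnr2) and 1077 and 1091 TPM (mt-Rnr1). Removal of ribosomal RNA was not given in the sources used here, and their levels cannot be set against those of the proteins.

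The gene groups most like the members were higher. The 36 nuclear complex I subunit genes, which encode the entry enzyme of the respiratory chain, had medians of 386 and 383 TPM. The 80 cytosolic ribosomal protein genes, of which 77 were at 1 TPM or more, had medians of 474 and 463 TPM. The medians of the members were 81.8 and 79.0 TPM, under both, and Mrpl42 at 401 TPM was the single member to pass the complex I median.

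**Figure D3:**
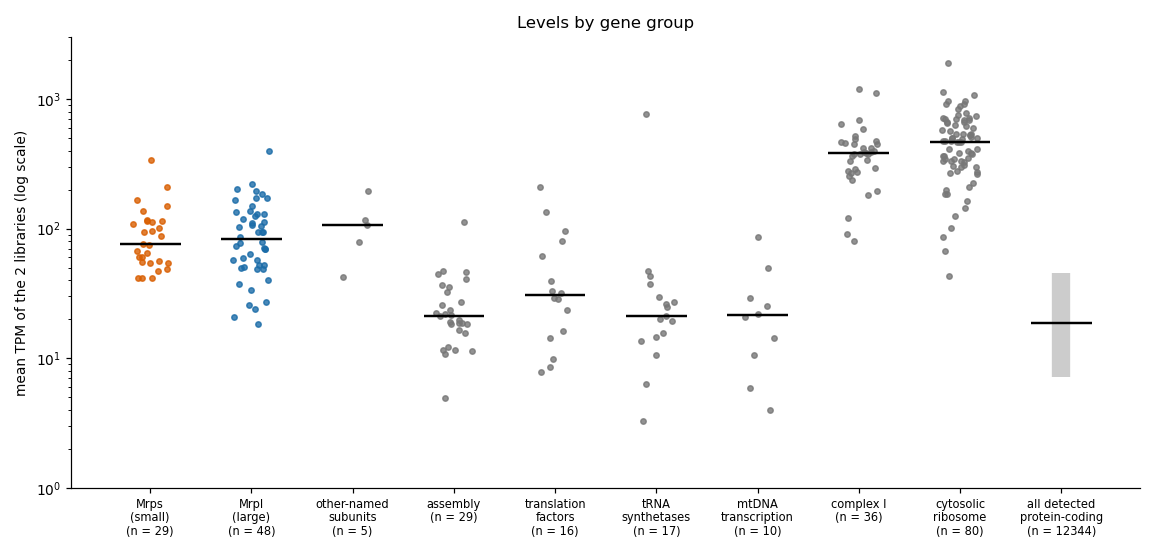
Mean TPM of the 2 libraries (log axis) for small and large subunit members, then for the other groups of mitochondrial translation, complex I and the cytosolic ribosome, with 1 point per gene and a black bar at the median; for all protein-coding genes at 1 TPM or more a grey bar gives the middle 50%. The members lie under complex I and the cytosolic ribosome and above the assembly factors; 3 cytosolic ribosomal genes under 1 TPM are not drawn.

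The 2 libraries gave similar levels for nearly all members. The Pearson correlation of log2 TPM between libraries was 0.996 over 77 genes, and 41 members were higher in TPM in replicate 1 and 36 in replicate 2. In library-scaled reads without length the balance was 50 and 27, and the share of other genes in that measure was not computed. A higher TPM in replicate 1 held for 42.9% of nuclear protein-coding genes with a mean of at least 20 reads and 40.6% of those in the range of reads of the members. The median absolute log2 ratio was 0.052 for members, 0.069 for those genes and 0.055 for genes in the TPM range of the members. While 73 members lay within 1.1-fold, the share of other genes within that fold was not computed. A single member, Mrpl23, was more than 0.32 apart on the log2 scale, or 1.30% of members, against 2.17% of genes in the read range, 0.833% of genes in the TPM range and 10.4% of genes with a mean of at least 20 reads. The median absolute log2 ratio was lower in cytosolic ribosomal protein genes (0.040) and complex I genes (0.045), none of which was that far apart.

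Differences between libraries were within counting error for most single members, though not for the members as a set. The exact binomial 95% interval of the ratio of reads held no difference for 68 of 77 members, or 88.3%, against 76.9% of genes in the same range of reads. Such intervals hold counting error alone and treat PCR copies as if they were separate molecules. In 6 members the interval lay above 0 and in 3 below it. Over all members the chi-square of the reads per degree of freedom was 1.85, and 1.69 without Mrpl23, where counting error alone gives 1. The common biological coefficient of variation from edgeR was 2.19% over the members, 3.98% over those genes and 4.45% over 16014 genes. It was 2.21% for small and 2.19% for large subunit genes, 2.67% for cytosolic ribosomal protein genes and 2.45% for complex I genes. Without Mrpl23 it was 2.08% over the members and 2.00% over the large subunit genes.

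The members furthest apart came from both subunits in both directions. Higher in replicate 1 were Mrps18b (59.18 and 51.55 TPM in replicates 1 and 2, log2 ratio 0.20), Mrpl32 (112.30 and 99.80 TPM, 0.17), Mrpl20 (123.70 and 112.22 TPM, 0.14), Mrpl2 (81.77 and 74.58 TPM, 0.13) and Mrps25 (63.54 and 58.32 TPM, 0.12). For Mrpl2 and Mrps25 the reads hardly differed, with log2 ratios of library-scaled reads of 0.012 and 0.0013. Their effective lengths differed instead, at 780 and 859 bases for Mrpl2 and 1145 and 1263 bases for Mrps25 in replicates 1 and 2. Higher in replicate 2 were Mrpl23 (28.66 and 39.03 TPM, -0.44), Mrps31 (39.56 and 43.17 TPM, -0.13), Mrpl15 (124.45 and 135.72 TPM, -0.12), Mrps11 (40.18 and 43.56 TPM, -0.12) and Mrps35 (65.01 and 70.20 TPM, -0.11). Of these 5 the interval lay wholly below 0 for Mrpl23 and Mrps35.

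**Figure D4:**
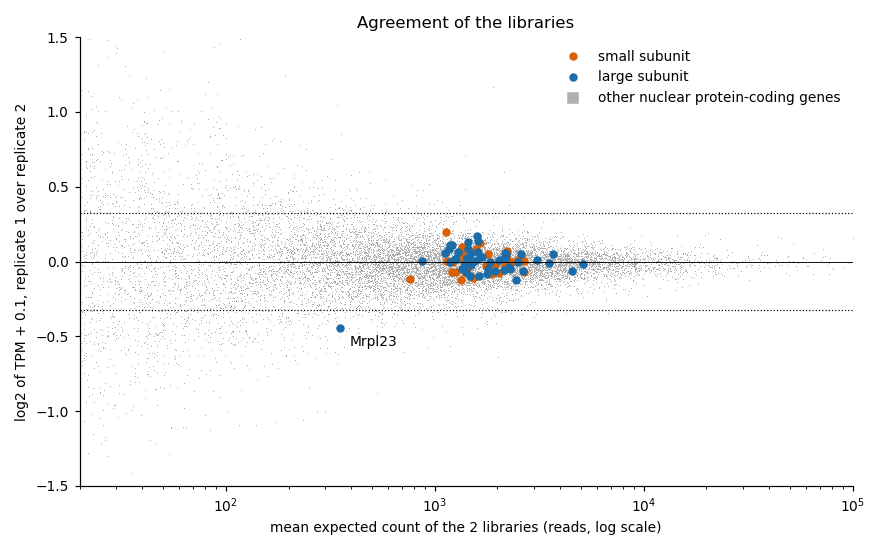
The log2 ratio of TPM + 0.1, replicate 1 over replicate 2, against the mean expected count in reads (log axis) for small (orange) and large (blue) subunit members and for other nuclear protein-coding genes with a mean of at least 20 reads (grey); dotted lines mark 0.32 on either side of 0. Mrpl23, at -0.44, is the one member outside the dotted lines; 64 of 13452 grey genes lie outside the axes.

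Mrpl23 shared its reads with a copy of itself. Mrpl23 lies on mouse chromosome 7 (GRCm38, 142532686 to 142540747, plus strand), and its processed pseudogene Mrpl23-ps1, a spliced copy, lies on chromosome 2 (74591330 to 74591909, minus strand). The 438 coding bases of Mrpl23 are identical to the pseudogene, with 0 mismatches and 0 gaps. The first 120 coding bases of both are shown for comparison, without capitals because no base differs.
Mrpl23: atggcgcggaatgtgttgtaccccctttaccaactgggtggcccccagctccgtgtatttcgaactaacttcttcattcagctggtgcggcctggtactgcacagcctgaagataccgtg
Mrpl23-ps1: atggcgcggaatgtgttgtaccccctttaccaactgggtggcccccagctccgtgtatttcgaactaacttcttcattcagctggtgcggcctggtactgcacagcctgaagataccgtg

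Most of the joint reads were given to the pseudogene. Mrpl23 had 320 and 386 expected reads in replicates 1 and 2, and Mrpl23-ps1 had 1470 and 1090, or 82.1% and 73.9% of the sum. The posterior SD of the read assignment was 80.5 and 64.7 reads for each of the pair. Mrpl23 was the 1 member with a posterior SD over 10% of its count, which 0.212% of genes in the same range of reads and 1.41% of genes with a mean of at least 20 reads had. The sum of both had 158.01 and 145.13 TPM, a log2 ratio of 0.12. Which of the 2 genes the reads came from was not tested, so the 28.66 and 39.03 TPM of Mrpl23 carry the uncertainty of that assignment. Within Mrpl23 itself the coding transcript had 5.75 and 5.47 TPM, and a transcript that M21 calls a processed transcript had 21.53 and 31.62 TPM.

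**Figure D5:**
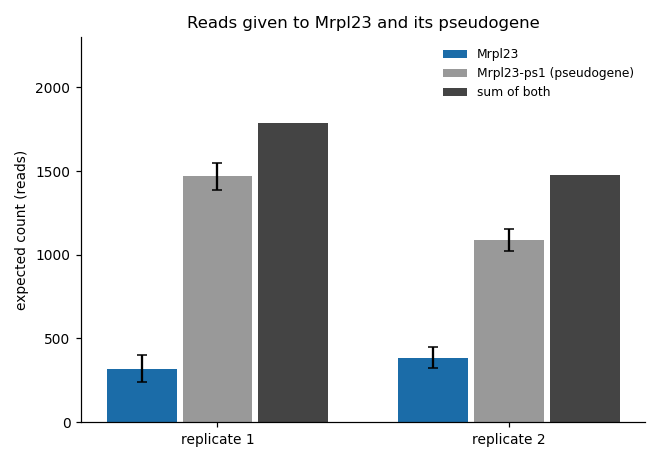
Expected counts in reads of Mrpl23 (blue), of its pseudogene Mrpl23-ps1 (grey) and of their sum (dark) in each library; error bars on the first 2 are the posterior SD of the read assignment. Mrpl23 has 320 and 386 reads and the pseudogene 1470 and 1090 reads in replicates 1 and 2.

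Copies of other members took few reads where the copy had a row. Alignments of at least 90% identity over at least 200 bases were found to 31 pseudogene copies of 18 members with rows in the tables. Among these 18, Mrpl23 was the 1 member whose copies drew more than 2% of the joint reads. Mrps36 had 5 copies with a row, which together drew 0.89% and 0.75% of the joint reads. Further pseudogene copies, such as D9Wsu149 of Mrpl21, Gm6997 of Mrpl22 and Gm3544 of Mrps36, had no row and could be given no reads. Whether reads from such copies were counted in the members was not tested.

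Mrpl33, the 1 gene of the rule with no row, was present under an older identifier. A row of 11 transcripts, ENSMUSG00000029142.10, includes 1 transcript that M21 assigns to Mrpl33, and this transcript carried 98.2% and 98.3% of the TPM of the row. The row had 304.2 and 301.86 TPM. It is not counted among the 77.

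Many members carried several transcripts, as did other genes. In 53 of 77 members at least 2 transcripts held 1% or more of the TPM of the gene. The same held for 5797 of 8175 protein-coding genes at 10 TPM or more. Of the 53 members 49, or 92.5%, had the same leading transcript in both libraries, against 94.2% of the 5797 genes. Leading transcripts held a median of 80.2% in these 53 members and 67.5% in those genes. The transcript that led on the mean of both libraries held the smallest share in Mrps5, at 23.1% and 27.1% in replicates 1 and 2, and Mrpl48, at 42.0% and 39.5%. Another transcript led Mrps5 in replicate 1, at 27.5%, and Mrpl48 in replicate 2, at 41.4%. Mrpl24 followed at 39.0% and 46.0%, Mrpl55 at 42.8% and 45.3%, Mrps10 at 46.4% and 44.2%, and Mrps11 at 45.3% and 51.7%, where another transcript led in replicate 1 at 46.5%. In Mrps5, Mrpl48, Mrps11 and Mrpl40 the leading transcript was not the same in both libraries.

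The leading transcript was coding in 63 members, or 81.8%, against 94.1% of 8175 protein-coding genes at 10 TPM or more. The share of TPM in coding transcripts was closer to that of other genes: its median was 95.9% in members and 97.2% in those genes, and it was under 75% in 22.1% of members and 19.3% of those genes. In the 14 other members M21 gives the leading transcript another type. Of these, 5 were of nonsense-mediated decay, 5 were processed transcripts and 4 had retained introns. Mrps14 had 90.6% of its TPM in a nonsense-mediated decay transcript, Mrps26 had 94.7% in a retained intron, and Mrpl51 had 49.98% in a processed transcript, with 8.06% in its coding one. Mrpl32 had a single transcript, of the nonsense-mediated decay type, and M21's 1 coding transcript of that gene had no row. For 11 of the 14, every coding transcript of M21 had a row. The tables were made with GENCODE M4, and transcripts of M21 that M4 lacks could receive no reads. Types were matched by transcript identifier without its version, and the types of M4 were not consulted. A type may thus belong to another version of the transcript than the one measured.

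Members often started close to another gene on the opposite strand. A start of another protein-coding gene on that strand lay within 1000 bases for 33 of 77 members, or 42.9%, against 10.9% of all and 16.1% of detected nuclear protein-coding genes. The median distance between starts was 128 bases, and 11 distances were under 100 bases. Mrpl36 started 29 bases from Ndufs6 (467 TPM), a complex I subunit gene, and Mrpl47 started 615 bases from Ndufb5 (388 TPM), another. Mrpl49 lay 59 bases from Fau (335 TPM), which encodes a cytosolic ribosomal protein, and Mrps12 lay 172 bases from Sars2 (19.4 TPM), a mitochondrial aminoacyl-tRNA synthetase.

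Mrpl46 and Mrps11, one gene of each subunit, pointed away from each other on chromosome 7. Mrps11 averaged 41.9 TPM and Mrpl46 averaged 52.0 TPM. In M21, whose outermost starts were used above, they start 412 bases apart and overlap. Between the starts that RefSeq gives them lie 41 bases (GRCm38.p6, chr7:78783090-78783130, plus strand, 42 bases from start to start), shown because the stretch separates a gene of each subunit.
Between Mrpl46 and Mrps11: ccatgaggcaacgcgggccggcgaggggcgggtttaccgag

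Some members overlapped a gene on the opposite strand. Exons of 28 members, or 36.4%, overlapped an exon of a gene on the other strand, against 31.4% of detected protein-coding genes. More than 25% of the exon bases overlapped in 6: Mrps25 (69.8%, with Nr2c2), Mrps34 (63.4%, with Mapk8ip3), Mrpl19 (36.0%, with Gcfc2), Mrpl43 (33.4%, with Twnk), Mrps18b (30.5%, with Gm16279) and Mrpl24 (26.3%, with Rrnad1). The other 22 overlapped by 0.06% to 24.2%. Strand retention was not given in the sources used here, and whether reads of these pairs were told apart was not tested. In the 6 the posterior SD of the read assignment ran from 0% (Mrpl43, both libraries) to 0.98% of the count (Mrps25, replicate 2). Among the 22, Mrpl47 (24.2%, with Ndufb5 at 388 TPM) and Mrpl18 (10.1%, with Tcp1 at 340 TPM) faced the most abundant partners besides Mrpl36 (2.58%, with Ndufs6).

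Promoters of the members were searched for the letters of 7 kinds of site, of which those of YY1 and ETS factors were more frequent than in other promoters. RefSeq gave promoters for 68 members, as windows of 300 bases (250 before to 50 after the start, GRCm38.p6), 1.09 windows per member and 1.29 per detected gene. The letters AAGATGG, in sites of YY1, stood on either strand in 13 members, or 19.1%, against 7.31% of all promoters of protein-coding genes and 8.25% of those of detected genes. The letters CCGGAAG of ETS factors stood in 25 members, or 36.8%, against 13.5% and 20.3%.

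The other strings were near or below their share in detected genes. The letters GCATGCG, in sites of NRF1, stood in 7 members, or 10.3%, against 5.16% of all and 7.39% of detected genes. GGGCGG, of SP1, stood in 34 members, or 50%, against 51.4% of all and 70.3% of detected genes. CACGTG, the E box, stood in 7.35% against 9.24% and 11.9%, CCAAT in 38.2% against 42.0% and 43.3%, and TATAAA in 7.35% against 14.1% and 8.62%. Among genes in the TPM range of the members, the shares were 10.0% for YY1, 24.3% for ETS, 8.71% for NRF1 and 72.5% for SP1. Matches of different strings may share bases. They describe letters in these windows and are no measure of binding. Of the 15 YY1 matches in members, 9, or 60%, began at or after the start, against 427 of 1310, or 32.6%, in other genes. The 8 of these on the strand of the gene are printed with 30 bases each, the match in capitals, to show the bases around them. Each of these matches includes ATG, the letters of a start codon, and whether translation starts there was not tested.
Mrpl35: gcaggctgcAAGATGGcggcttccatcttc
Mrpl37: gcacgggcaAAGATGGcggcgtccaggtag
Mrpl42: gattgaagcAAGATGGcgagcgcgcggtga
Mrpl49: tgaggcgccAAGATGGcagcagcggtgttg
Mrps18a: gtgcgttccAAGATGGcggccctcagggct
Mrps24: cgggtcgcgccggcccAAGATGGcgtggtc
Mrps27: gtgcgctccAAGATGGcggctcccatggtg
Mrps7: acagcggccAAGATGGctgcccccgcgctg

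In Mrpl35 (chr6:71823741-71823770, minus strand), Mrpl37 (chr4:107066820-107066849, minus), Mrpl42 (chr10:95501902-95501931, minus) and Mrpl49 (chr19:6057719-6057748, minus) the match began at bases 24, 27, 28 and 17 of the transcript as RefSeq starts it. In Mrps18a (chr17:46111006-46111035, plus strand), Mrps24 (chr11:5707652-5707681, minus), Mrps27 (chr13:99344791-99344820, plus) and Mrps7 (chr11:115604149-115604178, plus) it began at bases 12, 37, 15 and 19. The level of these 8 genes ran from that of the lowest member (Mrpl35, 18.3 TPM) to that of the highest (Mrpl42, 401 TPM).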

How the data were processed

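Total RNA of 2 libraries was sequenced. Per the notes deposited with the files, reads were aligned to mm10 with GENCODE M4; names of aligner and quantifier were not given in the sources used here. Expected counts, as deposited, divide shared reads among genes, the deposited TPM and FPKM scale them by length and library, and the deposited percent values give a transcript's share of its gene. Names, types and positions came from GENCODE M21 (GRCm38), promoters from RefSeq. Promoter strings were chosen without a rule fixed in advance: longer strings for YY1 and NRF1 were searched first, and the 7-letter ones reported were chosen after those results were seen. Members and lists were chosen with earlier results of these data known. Genes named were the 6 highest and 4 lowest of each subunit, the 5 furthest apart between libraries each way (at least 100 reads), Mrps18 paralogs, cardiomyopathy genes, misnamed members, low leading transcripts, overlapped members and the ends of each list.

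Ratios are log2(TPM + 0.1), which understates differences of low genes, for genes with a mean of at least 20 reads. Rounded counts went to edgeR 4.0.16 (TMM, filterByExpr; R 4.3.3), with DESeq2 1.42.0 size factors as an alternative. Copies were sought with blastn 2.17.0; Python 3.11.15, numpy 2.4.6, pandas 2.3.3 and matplotlib 3.10.9 did the rest. Read counts of the libraries differed beyond sampling noise (chi-square per degree of freedom 4.19), so both were kept. Alternatives covered subunit assignment, units, scaling, pseudocounts, thresholds and each library alone. Steps were tested on simulated counts.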

Additional observations from a re-analysis of the deposited data

How the results depend on the processing

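No paired analysis was possible because the 2 libraries form 1 group. The log2 ratio of small over large subunit medians, -0.13, ran from -0.20 to -0.07 with 1 library left out. It moved by more than its SD in 4 settings: 0.13 with the 5 proteins of other names, 0.057 with geometric means, -0.0052 in library-scaled reads without length and, in a setting chosen after seeing the data, -0.24 with Mrpl23 summed with its pseudogene. The cause was not tested. Subunit medians ran from 74.5 to 77.2 TPM (small) and 80.9 to 85.6 TPM (large). The count of members more than 0.32 apart on the log2 scale, 1, was 4 at 1.1-fold, 0 at 1.5-fold and, also added after seeing the data, 0 with Mrpl23 summed with its pseudogene. The other settings run, including pseudocounts of 0.01 and 1, FPKM, TMM and DESeq2 scaling and thresholds of 10 and 50 TPM, left each of these results within its spread or within 1.5 times its count; with the Mrpl33 row added, also a setting chosen after seeing the data, the ratio was -0.18. Leaving out 1 of 2 libraries cannot move a result by more than its SD. Minimums of 1 TPM and of 100 reads kept all 77 members. Neither kind of setting could show a change. The 2 libraries limit every statement on spread.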
